A study of Canis lupus familiaris with 33 samples.

Results

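The BCL2 family of apoptosis regulators was followed in lymph nodes of healthy dogs and of dogs with diffuse large B cell lymphoma (DLBCL), which arises from mature B cells. The members were taken as a list of 10 genes, namely BCL2, BCL2L1, MCL1, BCL2A1, BAX, BAK1, BID, BAD, BCL2L11 and PMAIP1. Every probeset whose single gene symbol in the platform annotation was one of these names was used. The array measured 9 of the 10 genes with 15 of its 43035 probesets, and PMAIP1 had no probeset of that name. Where a gene had more than 1 probeset, the one with the highest mean over all arrays, called the brightest here, stood for the gene, and the others are given beside it. All 9 genes lay above the 25th percentile of mean expression.

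The 33 arrays were of the type Affymetrix Canine Genome 2.0, each hybridised with RNA of 1 lymph node sample. They comprised 16 arrays of treatment naive DLBCL, 7 of DLBCL from dogs with earlier chemotherapy, called relapsed, and 10 of healthy nodes, taken at euthanasia for reasons other than lymphoma. The labels name CHOP for 4 of the relapsed samples and other drugs or a code for the other 3, and the last treatment lay 13 to 672 days back. Dogs with DLBCL were 2.7 to 13.3 years old, and ages of healthy dogs were not given in the sources used here. Healthy samples 1 to 4 carry the case number of 1 animal, called healthy dog 1. Samples 11 (naive) and 12 (relapsed) of the tumours likewise came from a single dog. After averaging the arrays of each dog, 22 dogs with DLBCL and 7 healthy ones remained. The relapsed and the naive groups were compared as 23 arrays. All values are log2 RMA values, so that a difference of 1 is a 2-fold change of signal, and every difference is tumour minus healthy node or relapsed minus naive.

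Apoptosis through mitochondria is set by the balance of this family. The pro-survival proteins BCL2, BCL-xL (the product of BCL2L1), MCL1 and A1 (BCL2A1) hold the pore-forming effectors BAX and BAK1 in check, and the BH3-only proteins BID, BAD, BIM (BCL2L11) and NOXA (PMAIP1) relieve that hold or activate the effectors directly. BCL2 is named after B cell lymphoma, in which a translocation can place it under an immunoglobulin enhancer.

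The samples differed in more than their diagnosis. The mean of 13 T cell markers was 9.9 to 10.92 in healthy dogs and 7.21 to 9.53 in dogs with DLBCL, and 11 of these genes were lower in DLBCL. The mean of 7 proliferation genes was 8.09 to 10.23 in healthy dogs and 9.62 to 11.56 in DLBCL, and all 7 were higher. The mean of 8 B cell markers was 9.24 to 9.95 in healthy dogs and 7.64 to 11 in DLBCL, and CD79A and BLK were higher. The mean of 11 macrophage and monocyte markers was 10.35 to 12.35 in healthy dogs and 9.3 to 11.54 in DLBCL, and 4 of these genes were lower and 0 higher. DLBCL sample 5 (naive) had the lowest B cell mean, 7.64, below every healthy dog, and DLBCL sample 18 (relapsed) had the lowest proliferation mean of the tumours, 9.62. RNA integrity numbers (RIN) were 8.9 to 10 in DLBCL dogs and 5.8 to 7.7 in healthy dogs other than healthy dog 1, which had 9.15. Healthy dog 1 also stood apart from the other 6 healthy dogs in its marker means: 10.23 against 7 to 7.95 for 5 neutrophil markers, 12.35 against 10.35 to 11.42 for the macrophage markers, 9.9 against 10.62 to 10.92 for the T cell markers and 8.09 against 8.84 to 10.23 for the proliferation genes. In whole nodes, fewer cells of a type and less RNA per cell cannot be told apart.

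Of the 9 measured members, BAX, BAK1 and BID were higher in DLBCL than in healthy nodes, BCL2L1 and BCL2A1 were lower, and BCL2, MCL1, BAD and BCL2L11 did not pass the test. This was judged by limma over all probesets at a Benjamini-Hochberg adjusted p under 0.05. Over all 15115 genes, 19.9% were called higher and 14.9% lower, against 3 and 2 of the 9 members. The median log2 difference over all genes was 0.06. No member separated the 22 DLBCL from the 7 healthy dogs without overlap, which 1.73% of all genes did. The 5 calls were not seen when RIN was added to the model as a covariate, where 0 of the 9 members were called in either direction. The SEs were wider in that model, and its differences are given below.

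**Figure D1:**
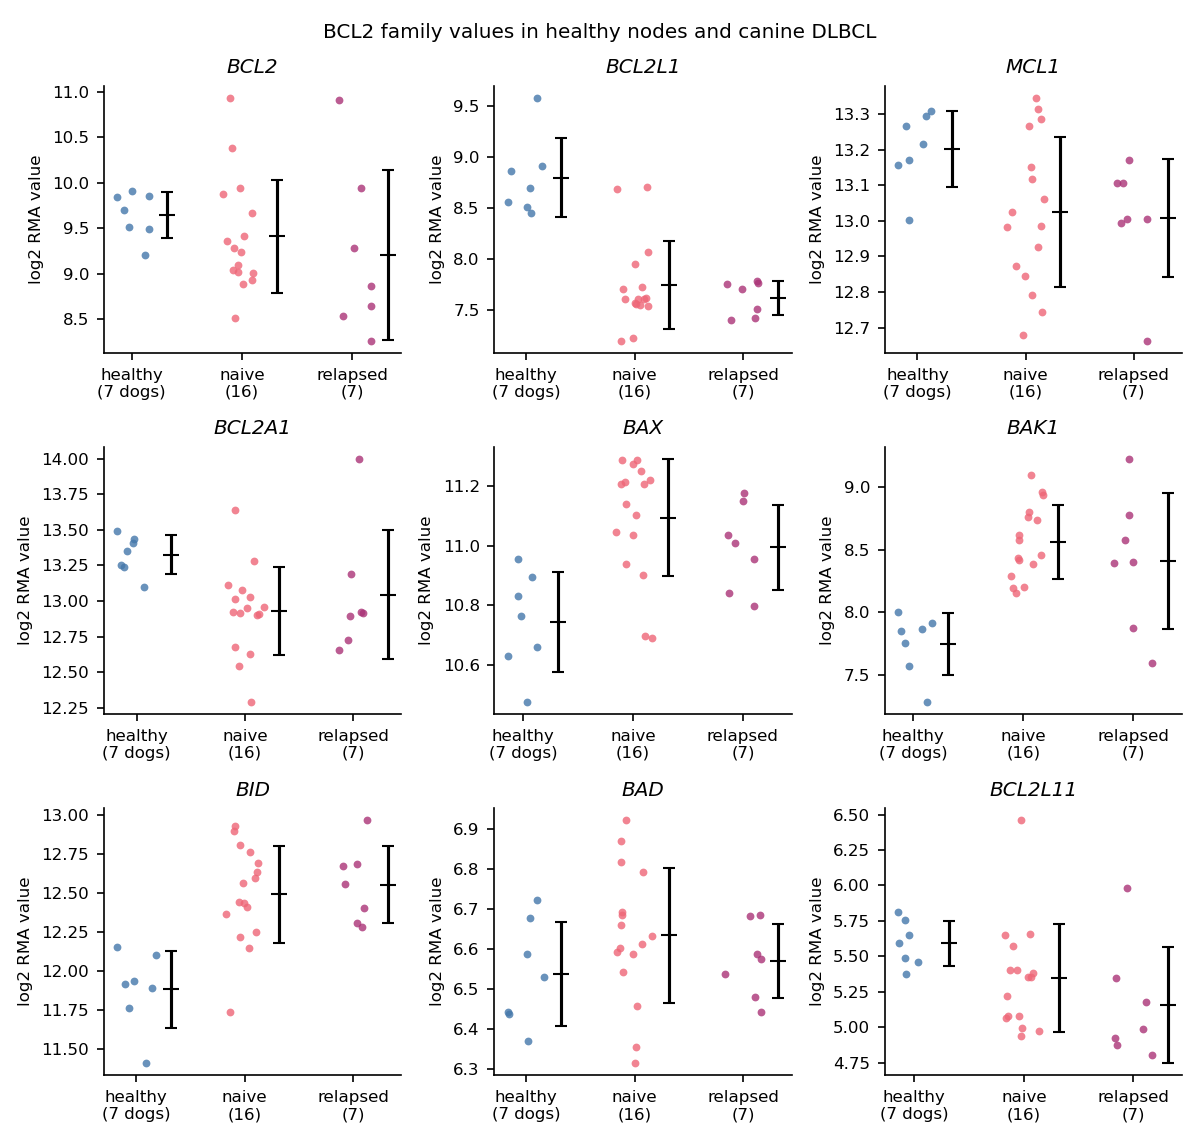
Log2 RMA values of the 9 measured members (brightest probeset) in 7 healthy dogs, 16 naive and 7 relapsed DLBCL arrays, each point 1 dog or array, with bars for the mean and SD beside them. BCL2L1 lay mostly below and BAX, BAK1 and BID mostly above the healthy dogs in both tumour groups, and BCL2 spread to both sides of them.

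BCL2L1, which encodes BCL-xL, had the largest difference of the pro-survival members. Its brightest probeset lay between 8.46 and 9.57 in healthy dogs with a median of 8.7. In naive DLBCL it ranged from 7.2 to 8.7 with a median of 7.61, and in relapsed DLBCL from 7.41 to 7.78 with a median of 7.71. Thus 20 of 22 DLBCL dogs lay below every healthy dog, and the other 2 were the naive samples 5 at 8.68 and 21 at 8.7. The mean fell from 8.8 ± 0.38 (SD, n = 7) to 7.71 ± 0.37 (SD, n = 22). The log2 difference was -1.09 (SE 0.16, limma adjusted p = 6.58e-06), or 2.12-fold. The second BCL2L1 probeset was dimmer and gave -0.03 with a 95% interval of -0.25 to 0.19 (limma adjusted p = 0.868), so that the decrease was seen in 1 of the 2 probesets of the gene.

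BCL2A1 encodes A1, a pro-survival protein and a target of NF-kB. Its values ran from 13.1 to 13.49 in healthy dogs with a median of 13.35. They ran from 12.29 to 13.64 in naive DLBCL with a median of 12.94, and from 12.66 to 14 in relapsed DLBCL with a median of 12.92. Of the 22 DLBCL dogs 17 lay below all healthy dogs, while samples 18 (14) and 21 (13.64) lay above all of them. The log2 difference was -0.35 (SE 0.14, limma adjusted p = 0.0482). The call was at the limit of the threshold: when 1 of the healthy samples 5 to 10 was left out, the adjusted p was 0.0632, 0.0866, 0.0964, 0.0764, 0.0877 and 0.0644 in turn. The second probeset gave the same size, -0.35, with an adjusted p of 0.153 by limma.

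BCL2 itself was the most variable member among the tumours. On its brightest probeset the healthy dogs lay between 9.2 and 9.91 with a median of 9.7. Naive DLBCL ranged from 8.51 to 10.93 with a median of 9.26, and relapsed DLBCL from 8.26 to 10.91 with a median of 8.86. There were 11 DLBCL dogs below all healthy dogs, 5 above all of them and 6 between. The SD was 0.73 over the 22 DLBCL dogs against 0.26 over the healthy dogs, and an SD of that size stood at the 90.7th percentile of all 15115 genes in DLBCL. The highest values were those of samples 20 (10.93, naive), 18 (10.91, relapsed) and 21 (10.39, naive), and the lowest those of samples 3 (8.26, relapsed), 10 (8.51, naive) and 13 (8.53, relapsed), so that both extremes held samples of both tumour groups. The mean log2 difference was -0.29 with a 95% interval of -0.85 to 0.27 (limma adjusted p = 0.442). The 4 arrays of healthy dog 1 spanned 9.53 to 10.21 for BCL2, which was nearly as wide as the span of the 7 healthy dogs. The second BCL2 probeset was dimmer and moved within a narrow range, 6.54 to 7.11 over all arrays. It was 0.15 higher in DLBCL (limma adjusted p = 0.0511). In naive DLBCL alone it was 0.18 higher (limma adjusted p = 0.0202), opposite in sign to the brightest probeset.

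MCL1, a short-lived pro-survival protein, had a narrow spread on its brightest probeset. Its values were 13 to 13.31 in healthy dogs, 12.68 to 13.34 in naive DLBCL and 12.66 to 13.17 in relapsed DLBCL, with medians of 13.22, 13 and 13 in that order. The log2 difference of DLBCL from healthy nodes was -0.17 with a 95% interval of -0.32 to -0.01 (limma adjusted p = 0.0914). The second probeset gave -0.17 as well (limma adjusted p = 0.478). It was dimmer and its spread was wider, 9.57 to 11.21 in naive and 9.66 to 11.03 in relapsed DLBCL. In the healthy arrays it ran from 9.99 to 10.85.

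Both effectors were higher in DLBCL. BAX, which permeabilises the outer mitochondrial membrane, was measured at 10.48 to 10.96 in healthy dogs with a median of 10.76. It was 10.69 to 11.29 in naive DLBCL with a median of 11.17, and 10.8 to 11.18 in relapsed DLBCL with a median of 11.01. In 15 of 22 DLBCL dogs it exceeded every healthy dog, and no tumour lay below the lowest healthy dog. The log2 difference was 0.32 (SE 0.08, limma adjusted p = 0.00315). The second BAX probeset gave 0.44 (SE 0.09, limma adjusted p = 0.000312), and in 19 of 22 DLBCL dogs it exceeded the highest healthy dog. BAX was the only member with a call in each of 2 probesets.

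BAK1, the other effector, lay between 7.29 and 8.01 in healthy dogs with a median of 7.85. It ranged from 8.16 to 9.09 in naive DLBCL with a median of 8.52, and from 7.6 to 9.22 in relapsed DLBCL with a median of 8.41. All 16 naive arrays lay above the healthy dogs, and the 2 tumours that overlapped with them were the relapsed samples 18 at 7.6 and 9 at 7.88. The log2 difference was 0.75 (SE 0.15, limma adjusted p = 0.000218), or 1.69-fold. The dimmer second probeset gave 0.18 (limma adjusted p = 0.0836).

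Among the BH3-only members, BID was higher. BID links the death receptors to mitochondria, since CASP8 cleaves it to its active form. Values on its single probeset were 11.41 to 12.15 in healthy dogs with a median of 11.92. They were 11.74 to 12.93 in naive DLBCL with a median of 12.5 and 12.29 to 12.97 in relapsed DLBCL with a median of 12.56. Every relapsed array and 14 of the 16 naive arrays exceeded all healthy dogs, and the exceptions were samples 20 (11.74) and 5 (12.15). The log2 difference was 0.63 (SE 0.12, limma adjusted p = 0.000178), or 1.55-fold.

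BAD, which is held inactive by phosphorylation downstream of growth factor signals, differed little. It lay between 6.37 and 6.72 in healthy dogs, 6.31 and 6.92 in naive and 6.44 and 6.69 in relapsed DLBCL, and the log2 difference of DLBCL from healthy nodes was 0.08 with a 95% interval of -0.05 to 0.21 (limma adjusted p = 0.348). BCL2L11, which encodes BIM, was the dimmest member. It lay between 5.38 and 5.81 in healthy dogs, 4.94 and 6.46 in naive DLBCL and 4.8 and 5.98 in relapsed DLBCL. The 17 tag controls, probesets with no target in the dog, had means of up to 4.56, so that the lowest tumours were close to background. In 14 of 22 DLBCL dogs BCL2L11 was below every healthy dog and in 2 it was above, and the log2 difference was -0.29 with a 95% interval of -0.6 to 0.01 (limma adjusted p = 0.136).

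**Figure D2:**
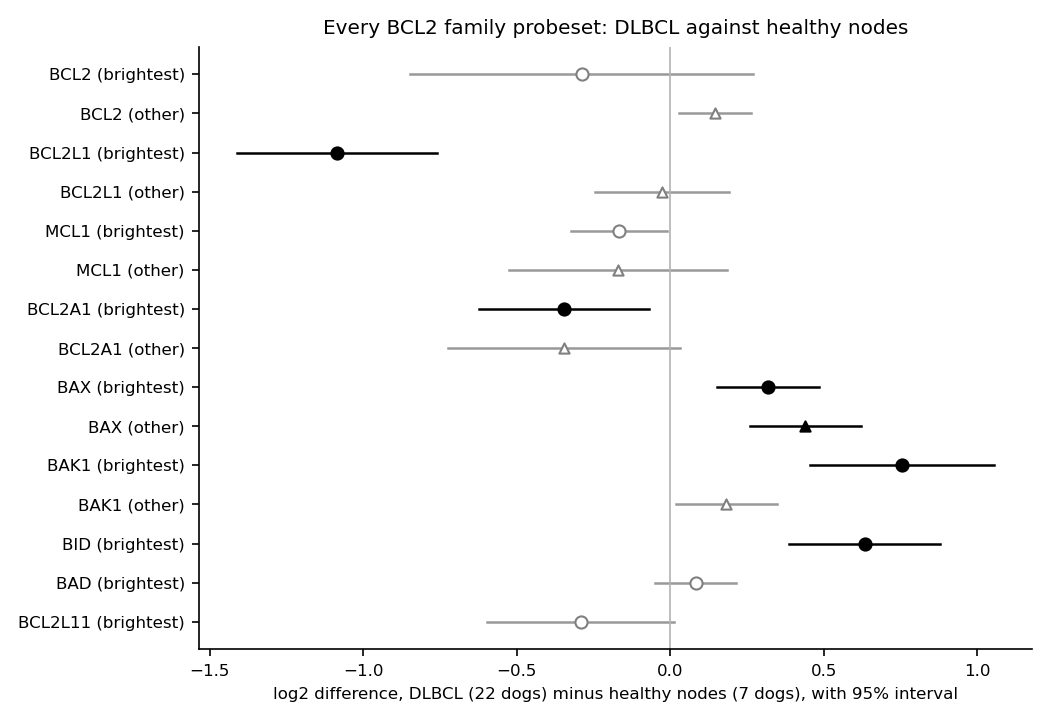
Log2 difference of DLBCL (22 dogs) minus healthy nodes (7 dogs) for all 15 probesets of the members, with 95% intervals; circles are the brightest probeset of a gene, triangles the other one, and filled symbols have a limma adjusted p under 0.05. The filled symbols were BCL2L1 and BCL2A1 to the left of 0 and BAX (both probesets), BAK1 and BID to the right, and for BCL2L1 and BAK1 the other probeset was nearer to 0.

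RIN was higher in the tumours than in 6 of the 7 healthy dogs, and its part in these differences cannot be told apart from that of the diagnosis. Without RIN the SEs of BCL2L1, BAX, BAK1, BID and BCL2A1 were 0.16, 0.08, 0.15, 0.12 and 0.14. With RIN as a covariate the log2 difference was -1.07 for BCL2L1 (SE 0.35, limma adjusted p = 0.11) and 0.54 for BAX (SE 0.17, limma adjusted p = 0.0947). It was 0.54 for BAK1 (SE 0.32, limma adjusted p = 0.441) and 0.83 for BID (SE 0.26, limma adjusted p = 0.0961). That of BCL2A1 turned to 0.03 (SE 0.29, limma adjusted p = 0.974). Over all 43035 probesets the number called fell in the same model from 8178 higher and 5840 lower to 249 and 500. Healthy dog 1 had a RIN within the range of the tumours. Its BAX value of 10.48 and its BID value of 11.41 lay below all 22 DLBCL dogs, its BAK1 value of 7.92 below 20 of 22, and its BCL2L1 value of 8.51 above 20 of 22. Its BCL2A1 value of 13.1 was above 17 of 22. This dog was unlike the other healthy dogs in its neutrophil, macrophage, T cell and proliferation means, whose part in these values was not tested. Without it, the same 5 members were called in DLBCL, with BAX at 0.27 (limma adjusted p = 0.0147) and BCL2A1 at -0.39 (limma adjusted p = 0.0446). Within the 22 DLBCL dogs the correlation of a member with RIN lay between -0.31 (BCL2A1) and 0.36 (BAK1), with a lowest permutation p of 0.101 for the 9 members (0.412 after adjustment). Within the 7 healthy dogs, BCL2A1 (r = -0.81, exact permutation p = 0.0288) and BAX (r = -0.77, exact permutation p = 0.0419) were lower where RIN was higher, and neither passed after adjustment over the 9 members (adjusted p = 0.188 for both). Spearman's rho was -0.64 for BCL2A1 and -0.54 for BAX.

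The naive and the relapsed arrays were each set against the same 7 healthy dogs, so that the results of the 2 comparisons share these samples. In naive DLBCL 3 members were higher and 2 lower, against 19.9% and 15.1% of all genes. The log2 differences were 0.35 for BAX, 0.81 for BAK1, 0.61 for BID, -1.05 for BCL2L1 and -0.4 for BCL2A1. In relapsed DLBCL, with fewer arrays, 2 members were higher and 1 lower, against 10.8% and 8.96% of all genes. These were BAK1 (0.66, limma adjusted p = 0.0133), BID (0.67, limma adjusted p = 0.00223) and BCL2L1 (-1.17, limma adjusted p = 0.000112). BAX (0.25, limma adjusted p = 0.0739) and BCL2A1 (-0.28, limma adjusted p = 0.258) were not called there. BAX was called in relapsed DLBCL when arrays were taken as separate samples (0.33, limma adjusted p = 0.0091) and when the probesets of a gene were averaged (0.31, limma adjusted p = 0.026). For BCL2A1 this turned on sample 18, since without it the difference was -0.44 (limma adjusted p = 0.0246). BCL2L11 was -0.43 in relapsed DLBCL (limma adjusted p = 0.0981), and without sample 24 it was -0.57 (limma adjusted p = 0.0223). The second BAX probeset was higher in relapsed DLBCL too, by 0.38 (limma adjusted p = 0.0151).

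Relapsed and naive DLBCL were then compared directly, which asks whether the family differed in tumours of dogs with earlier chemotherapy. No member and no other gene was called, that is 0% of genes higher and 0% lower. At an unadjusted p under 0.05 there were 2057 of 43035 probesets and 0 members by limma, and the test named in the study's methods called 0 probesets as well. The largest differences were those of BCL2 (-0.21, 95% interval -0.85 to 0.44) and BCL2L11 (-0.19, 95% interval -0.54 to 0.16). The 95% intervals were -0.21 to 0.17 for MCL1, -0.28 to 0.08 for BAX and -0.22 to 0.09 for BAD. They were -0.5 to 0.19 for BAK1, -0.21 to 0.33 for BID, -0.46 to 0.21 for BCL2L1 and -0.21 to 0.44 for BCL2A1. A 2-fold change between the tumour groups thus lay outside the interval of every member. In the dog sampled at both times, BCL2 was 9.01 when naive and 9.28 at relapse, BAK1 was 9.09 and 8.39, BID was 12.59 and 12.31, and BCL2L11 was 5.35 and 4.87. The other 5 members of that dog moved by -0.2 (BAX) to 0.37 (BAD).

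The direct relatives of the members were read from lists of the same kind. BCL2L2, the pro-survival protein BCL-w, was 0.39 higher in DLBCL (SE 0.12, limma adjusted p = 0.0171) in its brightest probeset and 0.08 and 0.13 in its other 2, which were not called. The BH3-only relatives BMF (0.14, limma adjusted p = 0.0752) and HRK (0.11, limma adjusted p = 0.281) were not called in their brightest probesets, and the second BMF probeset was 0.37 higher (limma adjusted p = 0.00389). BCL2L10, BCL2L12, BBC3, BIK and BOK had no probeset of that name.

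Of 8 further relatives 2 were higher, none was lower and 6 were not called, against 19.9% of all genes higher and 14.9% lower. BCL2L14, also known as BCL-G, had the largest difference of the family. It lay between 6.46 and 8.06 in healthy dogs with a median of 7.43, and between 7.99 and 10.07 in DLBCL dogs with a median of 9.61, and 21 of the 22 DLBCL dogs lay above all healthy dogs. The log2 difference was 2.11 (SE 0.21, limma adjusted p = 1.68e-08). Of its other 4 probesets 3 were higher by 1.82 to 2.05, and the dimmest, at 4.61 in both groups, was not. BNIP1, a SNARE protein of the endoplasmic reticulum with a BH3 motif, was 0.76 higher (SE 0.14, limma adjusted p = 0.000114). BCL2L13 (0.32), BCL2L15 (0.34), BNIP2 (0.04), BNIP3 (-0.02), BNIP3L (0.03) and BCLAF1 (-0.03) were not called in their brightest probesets. In relapsed DLBCL BCL2L14 and BNIP1 were again higher, by 2.16 and 0.59.

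Downstream of the family, 11 of 13 genes of the mitochondrial death pathway were measured, and 6 were higher, 1 lower and 4 not called in DLBCL, against 19.9% of all genes higher and 14.9% lower. CYCS, the cytochrome c that leaves the mitochondria, was 0.6 higher (limma adjusted p = 9.30e-05), and APAF1, the scaffold of the apoptosome, was 0.5 higher (limma adjusted p = 0.0321). ENDOG, a mitochondrial nuclease, was 0.44 higher (limma adjusted p = 0.0498), and AIFM1, a mitochondrial flavoprotein that acts in the nucleus when released, was 0.36 higher (limma adjusted p = 0.00132). The channel genes VDAC2 and VDAC3 were higher by 0.26 and 0.19. HTRA2, a mitochondrial protease, was lower (-0.3, limma adjusted p = 0.0179). CASP9, DIABLO, XIAP and VDAC1 were not called. The median over the 11 genes was 0.19, against 0.06 over all genes.

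Upstream, 14 of 15 regulators were measured, and 4 were higher, 1 lower and 9 not called, against the same 19.9% and 14.9% of all genes. E2F1, a transcription factor of the cell cycle, was 0.83 higher (limma adjusted p = 1.23e-05) and exceeded every healthy dog in 22 of 22 DLBCL dogs. CASP8, the caspase that cleaves BID, was 0.8 higher (limma adjusted p = 5.91e-05). DYNLL1, a dynein light chain that binds BIM, was 0.71 higher (limma adjusted p = 0.000304), and FOXO3, a transcription factor of BCL2L11, was 0.62 higher (limma adjusted p = 0.000154). USP9X, a deubiquitinase of MCL1, had a log2 difference of -3.64 in its brightest probeset (limma adjusted p = 1.74e-11), whereas its other 3 probesets gave 0.19, -0.13 and 0.01 and were not called. The targets of the 5 NF-kB subunits include BCL2A1 and BCL2L1. RELB (-0.52, limma adjusted p = 0.00116) and NFKB1 (-0.21, limma adjusted p = 0.0436) were lower and RELA, REL and NFKB2 were not called. These were 0 higher and 2 lower, against 19.9% and 14.9% of all genes. In naive DLBCL 1 subunit was higher and 1 lower, against 19.9% and 15.1% of all genes. In relapsed DLBCL 0 were higher and 2 lower, against 10.8% and 8.96%. The part of the subunits in the values of the members was not tested.

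**Figure D3:**
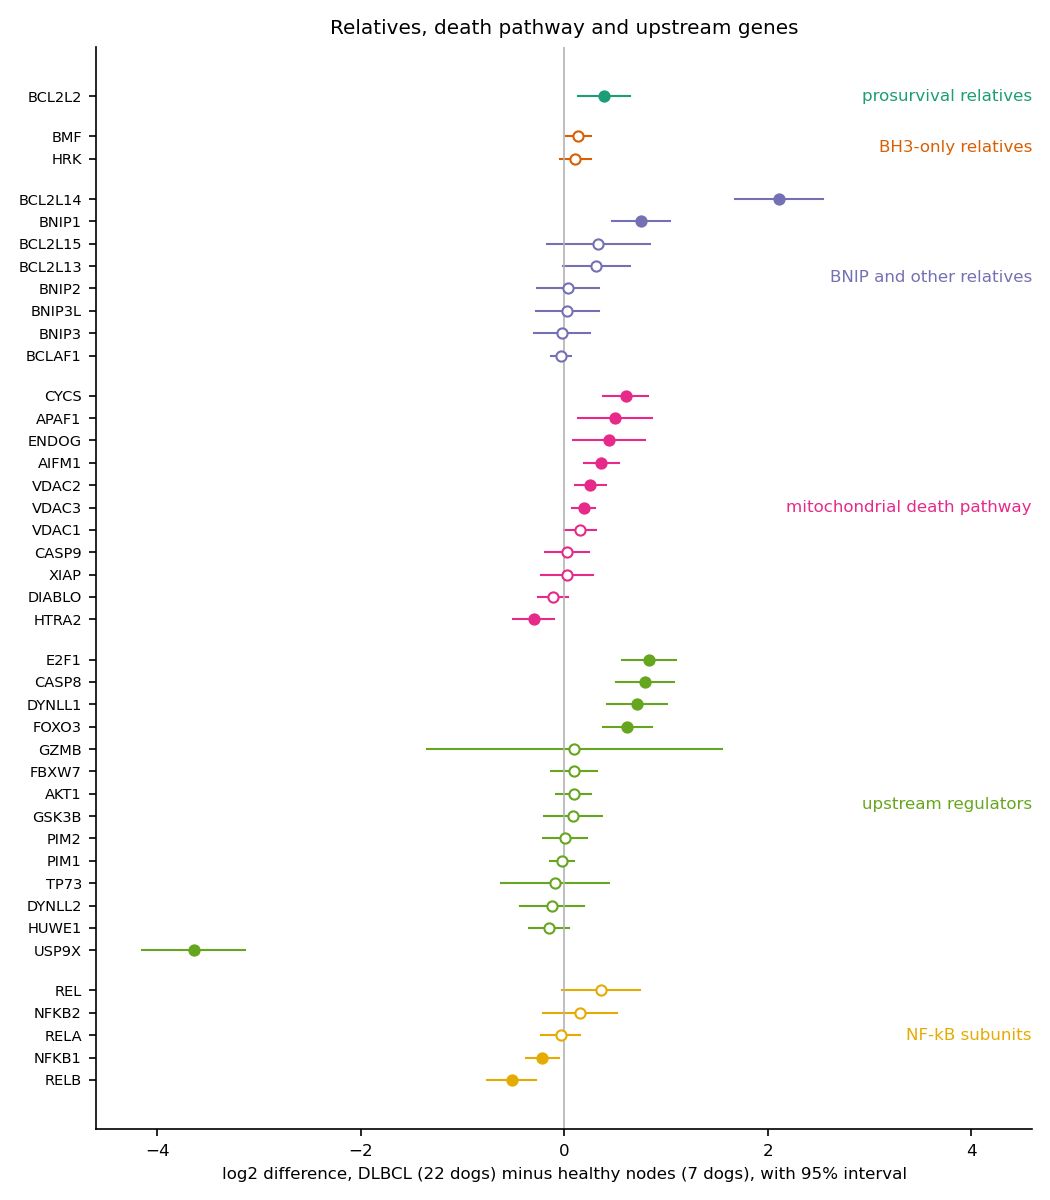
Log2 difference of DLBCL (22 dogs) minus healthy nodes (7 dogs), with 95% intervals, for the brightest probeset of each measured gene of 6 lists around the family; filled circles have a limma adjusted p under 0.05. BCL2L14 (2.11) and USP9X (-3.64) lay farthest from 0, and the called genes of the mitochondrial death pathway lay between -0.3 and 0.6.

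Within the 22 DLBCL dogs the members were only loosely related to each other. Of 36 pairs of members 0 had a Benjamini-Hochberg adjusted p under 0.05 for Pearson's r in a two-sided permutation test, and 0 for Spearman's rho. Pearson's r lay between -0.51 and 0.6 with a median of 0.2. The strongest positive pair was BCL2L1 with BCL2L11 (r = 0.6, permutation p = 0.00706, adjusted p = 0.254, rho = 0.41), and r was 0.16 once the 2 dogs farthest from the median of BCL2L1 were left out, so that it rested on those dogs. The strongest negative pair was BCL2 with BAK1 (r = -0.51, permutation p = 0.0148, adjusted p = 0.267, rho = -0.51), with r at -0.29 once the 2 dogs farthest from the median of BCL2 were left out. BCL2 ran against BID in the same direction (r = -0.44, permutation p = 0.0415, adjusted p = 0.327, rho = -0.38), and r was -0.17 without 2 dogs.

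**Figure D4:**
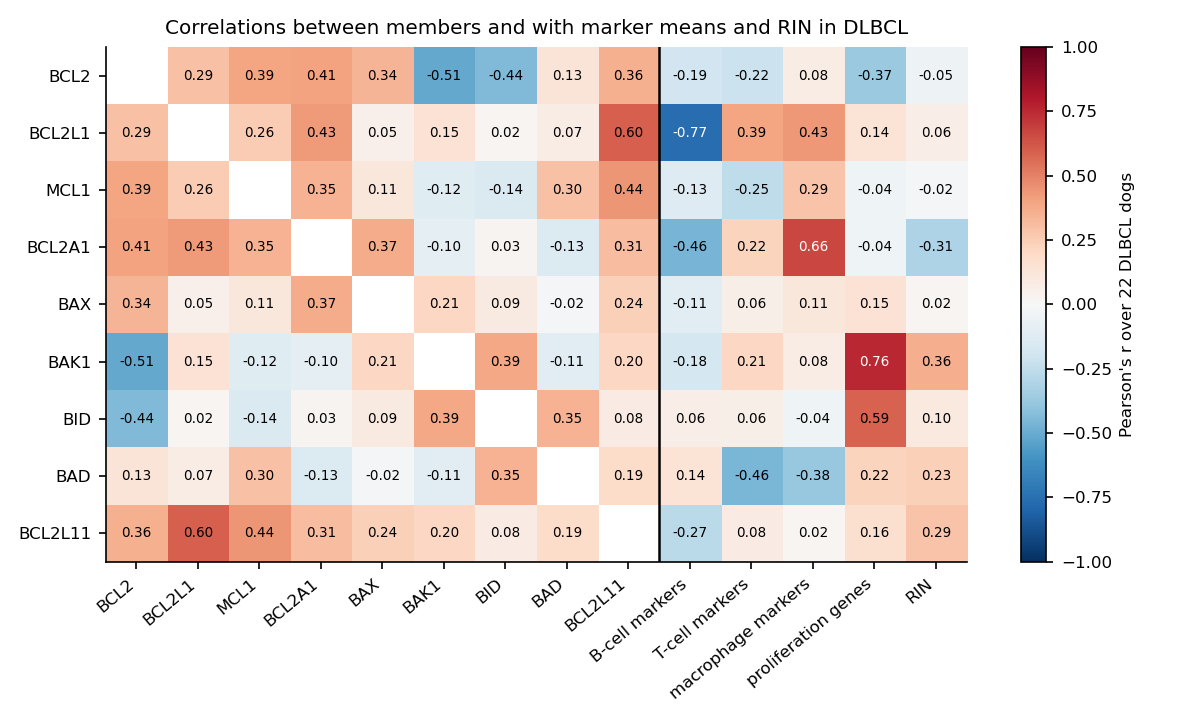
Pearson's r over 22 DLBCL dogs between the 9 members (left of the line) and between each member and the means of 4 marker lists and RIN (right of the line), with the value printed in each cell. The largest values lay right of the line: BCL2L1 with the B cell markers (-0.77), BAK1 with the proliferation genes (0.76) and BCL2A1 with the macrophage markers (0.66).

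The members were next compared with the makeup of the tumours, by the means of the B cell, T cell, macrophage and proliferation lists and RIN, which gave 45 relations. For Pearson's r 4 had an adjusted p under 0.05, and for Spearman's rho 0 did. BAK1 rose with the proliferation genes (r = 0.76, permutation p = 5.00e-05, adjusted p = 0.00225; rho = 0.63, adjusted p = 0.0506), with r = 0.6 when the 2 dogs farthest from the median of BAK1 were left out. BID rose with them too (r = 0.59, permutation p = 0.00367, adjusted p = 0.0413; rho = 0.62, adjusted p = 0.0506), with r = 0.54 without 2 dogs. Neither gene is part of the proliferation list. BAX, which was also higher in DLBCL, had r = 0.15 with the same genes (adjusted p = 0.886).

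BCL2A1 rose with the macrophage and monocyte markers (r = 0.66, permutation p = 0.00034, adjusted p = 0.0051; rho = 0.6, adjusted p = 0.0506), and r was 0.59 without 2 dogs. Of the 11 macrophage and monocyte markers 4 were lower in DLBCL than in healthy nodes and 0 higher. Their median log2 difference was -0.47. Among the 7 healthy dogs, healthy dog 1 had the highest macrophage mean (12.35) and the lowest BCL2A1 value (13.1). Healthy sample 7 had the highest BCL2A1 value of these dogs (13.49) at a macrophage mean of 10.59. Sample 18, the highest in BCL2A1, had a macrophage mean of 11.41, and the tumours as a whole had 9.3 to 11.54. When samples 5 and 18 were left out, r was 0.59 and its adjusted p 0.0626. BCL2L1 fell as the B cell markers rose (r = -0.77, permutation p = 0.00023, adjusted p = 0.0051; rho = -0.54, adjusted p = 0.107). Samples 5 and 21, the 2 highest in BCL2L1, had B cell means of 7.64 and 9.6, the lowest of the tumours, and without these 2 dogs r was -0.45, so that much of the relation rested on them. BCL2 had no relation past the threshold, and its largest r was -0.37 with the proliferation genes (adjusted p = 0.399). The part of the other cells of the node in these values was not tested.

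**Figure D5:**
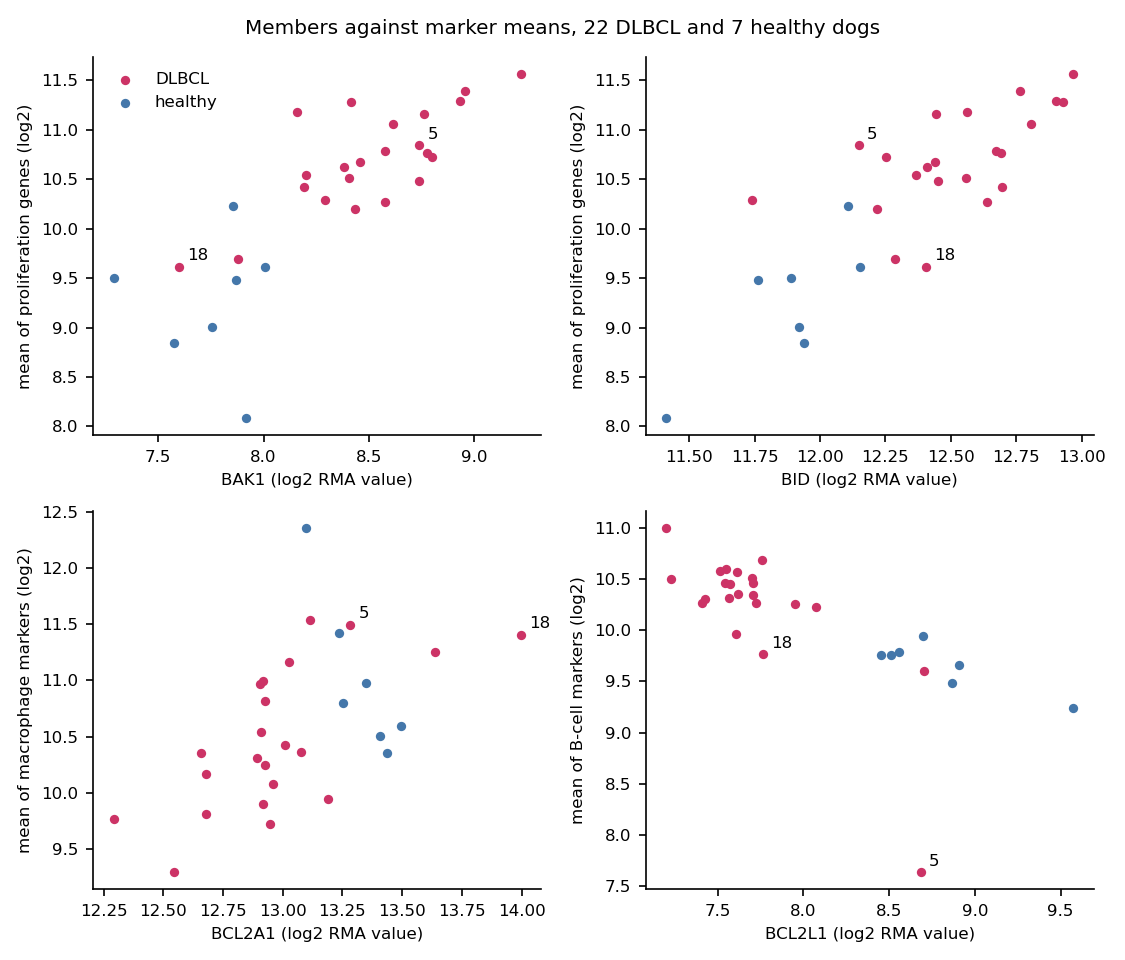
Members (x axis, log2 RMA value) against marker means (y axis, log2) in 22 DLBCL and 7 healthy dogs, for the 4 relations with an adjusted p under 0.05 in the DLBCL dogs; samples 5 and 18 are numbered. BAK1 and BID rose with the proliferation genes among the tumours, and sample 5 stood apart at a B cell mean of 7.64.

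The genes most like a member across the 22 DLBCL dogs were sought for 4 of the members among 12609 genes by Pearson's r, which is given as a description. For BCL2 they were VEGFB (0.85), ABCA3 (0.85) and LRRC57 (0.82). For BCL2A1 they were the gene RIN2 (0.83), RMC1 (0.83) and ABHD2 (0.82), and for BCL2L11 GNG3 (0.83), ERO1B (0.79) and PRF1 (0.78). Of these 4 members MCL1 had the weakest likeness, with ZRSR2 (0.69), DDIT3 (0.66) and CCDC33 (0.66).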

How the data were processed

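The authors normalised the 33 arrays by RMA in the Affymetrix Expression Console, which corrects the background, gives all arrays one distribution and gave the deposited log2 values, 1 for each probeset on each array. The version of the Expression Console is not stated in the sources used here. RMA compresses changes of dim probesets and does not show a change of total RNA. Array medians were 6.85 to 6.97, values ran from 2.2 to 15.49, and the number of arrays limits the precision.

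Groups came from the sample labels, and arrays of a case number were averaged. Gene symbols came from the platform annotation, where 29264 probesets had 1 symbol, 439 several and 13332 were unnamed. The differences were tested with limma 3.58.1 in R 4.3.3, with Benjamini-Hochberg adjustment over 43035 probesets and calls at an adjusted p under 0.05. Naive and relapsed arrays were set against healthy dogs in one fit of 3 groups. Gene lists were counted over brightest probesets. Correlations used 100000 two-sided permutations over 22 dogs, or all of them over 7 dogs, in Python 3.11.15 with numpy 2.4.6, scipy 1.17.1 and pandas 2.3.3, and plots matplotlib 3.10.9. Up to 4 genes of largest difference were named per pathway list, all direct relatives, and 3 genes of highest correlation per member searched. HTRA2, VDAC2, VDAC3, FOXO3 and genes stated as not called were named after their values were seen. The members and lists were chosen with earlier results of these data known. The procedures were tested on simulated data. The array day, read from a page image for 18 DLBCL arrays, was not assigned to healthy arrays, and the members of the 2 extraction batches were not known, so that neither was tested against healthy nodes. Alternatives are given in the closing section. The relation to RIN within the healthy dogs and the comparison with healthy dog 1 were added after the data were seen. Replicate numbers of DLBCL and healthy samples do not mark shared animals. Human arrays were not used here.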

Additional observations from a re-analysis of the deposited data

Results flagged for a closer look

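In 3 of 18 groups of 7 values (9 members in the healthy dogs and in the relapsed arrays) 1 sample stood apart by Dixon's test, which flags about 1 in 20 groups by chance. BCL2L1 was 9.57 on its brightest probeset in healthy sample 7, against 8.46 to 8.91 in the other healthy dogs. On the other BCL2L1 probeset the same sample was the lowest, 5.73 against 6.02 to 6.44. MCL1 was 12.66 in relapsed sample 12, against 12.99 to 13.17 in the other relapsed arrays, and it was 12.68 in the naive sample of the same dog. On the other MCL1 probeset sample 12 did not stand apart, at 9.82 within the 9.66 to 11.03 of the other relapsed arrays. BCL2A1 was 14 in relapsed sample 18, against 12.66 to 13.19 in the other relapsed arrays, and 13.17 against 11.24 to 12.04 on its other probeset.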

How the results depend on the processing

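Of 720 log2 differences of single members under the alternatives, 662 kept their direction and side of the threshold, 38 lost a call, 9 gained one and 11 changed sign. With RIN as a covariate 0 members were called higher and 0 lower in all 3 comparisons with healthy nodes, and BCL2A1 turned to 0.035 in DLBCL and 0.094 in relapsed DLBCL. The one-way ANOVA with the 2-fold threshold called 0 higher in all 3 of these comparisons and 0 lower in DLBCL and in naive DLBCL; BCL2L1 stood at -1 against that limit. Median centring (DLBCL) and averaging of all probesets of a gene (DLBCL and naive DLBCL) left 1 member lower, since BCL2A1 was lost. Leaving out 1 healthy dog gave 1 to 2 members lower in DLBCL and 1 to 2 in naive DLBCL, with BCL2A1 lost without each of healthy samples 5 to 10 in DLBCL and without healthy samples 6 to 9 in naive DLBCL. In relapsed DLBCL 2 members were lower with arrays as separate samples, with the one-way ANOVA and without samples 5 and 18, and leaving out 1 array or healthy dog gave 1 to 2 there. The number higher there was 3 in place of 2 with arrays as separate samples, with the one-way ANOVA and with the mean of a gene's probesets, since BAX was then called. The number of members called higher stayed at 3, 3 and 2 when 1 dog or array was left out, and at 0 in both directions between relapsed and naive DLBCL under every alternative run; separate arrays are already the basis of that comparison. In the comparisons with healthy nodes, leaving out the dog with both samples, an alternative added after the data were seen, changed no count.

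In relapsed against naive DLBCL, where no call was made, signs turned for BCL2L1 with the array day as a block (0.017), BCL2L11 with that block (0.091) and MCL1 with that block (0.081), without the dog in both groups (0.017) and with CHOP samples alone (0.044). The array day was read from a page image for 18 of the 23 DLBCL arrays and may hold reading errors. BCL2A1 was -0.020 without samples 5 and 18. Leaving out 1 relapsed array gave -0.045 to 0.040 for MCL1 (above 0 without sample 12), -0.044 to 0.18 for BCL2A1 (below 0 without sample 18) and -0.0077 to 0.11 for BID (below 0 without sample 4). The causes were not tested. Sample numbers shared by DLBCL and healthy arrays, which do not pair animals, were used as a replicate block over the 9 DLBCL arrays with such a number: 3 members were higher and 2 lower, with BCL2A1 at -0.34 (limma adjusted p = 0.0513) no longer called and BCL2L11 at -0.39 (limma adjusted p = 0.00763) called in its place. Deviations from the group means correlated at -0.15 to 0.16 between same-numbered arrays, and 1 of the 9 correlated best with its own number. Correlations between members stayed at 0 of 36 under both alternatives, and those with markers were 3 of 45 without samples 5 and 18, against 4. RNA quality and the cell makeup of the nodes, which differed between tumours and healthy nodes, and the number of healthy dogs, 7, limit these comparisons.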

Other observations

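On the brightest probesets, DLBCL sample 21 (naive) was among the 3 highest of the 22 DLBCL dogs for 8 of the 9 members, all but BAD, and no other dog was so for more than 3. It held the highest values of BCL2L1 (8.7) and BCL2L11 (6.46), the second highest of BCL2A1 (13.64) and the third highest of BCL2 (10.39), MCL1 (13.28), BAX (11.27), BAK1 (8.93) and BID (12.9). On the other probesets, sample 21 was again among the 3 highest for BCL2 (7.1), BCL2L1 (6.48), BCL2A1 (12.825) and BAX (10.32). It was not so for MCL1 (10.31, against 11.21 in sample 20) or BAK1 (7.02, with only sample 23 lower at 6.77). The B cell mean of sample 21, 9.6, was low among the tumours. Its T cell mean was 9.1, its macrophage mean 11.26 and its proliferation mean 11.29, and its RIN of 9.7 was within the range of the others. This was noticed in the data and was not tested. On the brightest probesets, sample 20 (naive) joined the highest BCL2 value (10.93) to the lowest BCL2L1 (7.2) and BID (11.74) values, with the highest B cell mean (11) and the lowest T cell mean (7.21) of the tumours. On the other BCL2L1 probeset sample 20 was not low: its 6.46 lay below only samples 5 (6.97) and 21 (6.48) among the tumours. On the other BCL2 probeset its 7.11 was again high, below only sample 25.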
